A study of Mus musculus with 6 samples.

Results

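The cytochrome P450 genes were read on arrays in a mouse lung adenocarcinoma line, 344SQ, carrying either a control vector or the miR-200b-200a-429 cluster. A gene was counted as a member when its symbol read Cyp, a number, a letter and a number (as in Cyp2c65) and at least 1 probe set of the array was annotated to it alone; where several probe sets were, the brightest over all 6 arrays stood for the gene. This gave 70 Cyp genes of 18193 genes on the array, 52 of them read by 1 probe set and 18 by several, in 34 subfamilies. RefSeq lists 92 protein-coding mouse genes with such symbols, of which 69 were measured, and Cyp2d13, the remaining member, is a transcribed pseudogene. Within this rule membership followed symbols and probe set annotation, but the family itself was chosen with earlier results of these data known. For genes with several probe sets, measured brightness over all 6 arrays decided which one was used.

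344SQ cells came from a subcutaneous tumour site in a single mouse of genotype p53R172H∆g/+ K-rasLA1/+ and were grown as a mass population. Both groups carried a lentivirus, were selected in puromycin as GFP-positive pools and were kept in the same serum medium, so the control group shared the virus, the selection and both tumour alleles with the miR-200 group and, by the labels, differed from it in the insert. Each group held 3 cultures, labelled A, B and C, with 1 array each. Whether the 3 cultures of a group go back to separate transductions is not in the labels, and no other line was measured, so the p-values speak only of the spread between these cultures, which may be technical. Cells were cultured in bulk, where fewer cells with a transcript and less transcript per cell cannot be told apart.

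Cytochrome P450 enzymes hold a haem group that activates molecular oxygen and inserts 1 of its atoms into a substrate, with electrons handed over by partner proteins such as cytochrome P450 reductase in the endoplasmic reticulum and adrenodoxin in mitochondria. Members of the low-numbered families oxidise drugs, pollutants and some fatty acids, family 4 enzymes hydroxylate fatty acids and leukotrienes, and other families make or break down bile acids, steroid hormones, vitamin D and retinoic acid. Liver, small intestine and airway epithelium each carry a typical set of these enzymes, and many of the genes answer to ligand-activated receptors such as the aryl hydrocarbon receptor and the pregnane X receptor. The miR-200 family is best known for repressing the Zeb transcription factors, which hold epithelial genes down.

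The agent that set the groups apart is 3 microRNAs made from 1 primary transcript on mouse chromosome 4. Their mature forms (RefSeq, GRCm38.p6, minus strand) are printed 5′ to 3′ with the seed, bases 2 to 8, in capitals, because the seed is what pairs with messenger RNAs.
mmu-miR-200b-3p (chr4:156055685-156055706): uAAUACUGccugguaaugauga
mmu-miR-200a-3p (chr4:156054911-156054932): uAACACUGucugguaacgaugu
mmu-miR-429-3p (chr4:156053916-156053937): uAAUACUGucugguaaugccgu
miR-200b and miR-429 share a seed, and miR-200a differs from them by U4C, counted from the 5′ end of the mature form. Sites for these seeds in Cyp transcripts were not analysed here.

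Of the 70 genes, 38 had a mean above the background gauge in both groups, 3 in the control group alone and 2 in the miR-200 group alone, while 27 lay under it in both. The gauge, 5.28 on the log2 signal scale, is the highest value of the array's probe sets for a bacterial trp gene, which mouse RNA should not light up. All levels below are log2 signals in this order of cultures: A, B, C. Levels of different genes come from different probes and were not compared with each other. Of the 6 arrays, those of control B and of miR-200 A left their groups in the same direction, their deviations correlating at 0.71 over the brightest 60% of probe sets, so results that rest on these cultures are given with and without them.

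Across the family, 2 genes fell in the miR-200 group, Cyp4f14 and Cyp2c65, and no member rose at an adjusted p under 0.05 (limma, two-sided, Benjamini-Hochberg over 45037 probe sets). The 2 genes are 2.86% of the family, beside a background of 0.671% of all genes called lower and 0.275% called higher. At an unadjusted p under 0.05, 8 members were lower and 4 were higher, or 11.4% and 5.71% of the family, against 8.47% and 6.35% of all genes. In 9 members every miR-200 culture lay under every control culture, and in 5 every one lay above, 12.9% and 7.14% of the family against 12.1% and 11.4% of all genes. By the unadjusted p and by overlap the family's share of lower genes was thus near the background, and its share of higher genes was no larger than it. The median difference, miR-200 minus control, was 0.03 (quartiles -0.19 and 0.31) over the 70 members and 0.0014 (quartiles -0.26 and 0.24) over all genes. A difference under 0.5 in size was found for 48 members and one above 1 for 9, so most members differed by little. Among those above 1, Cyp2d10, Cyp2d12 and Cyp2j13 were under the gauge in both groups, where a difference cannot be judged. Both counts include members under the gauge, and neither was taken over all genes.

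**Figure D1:**
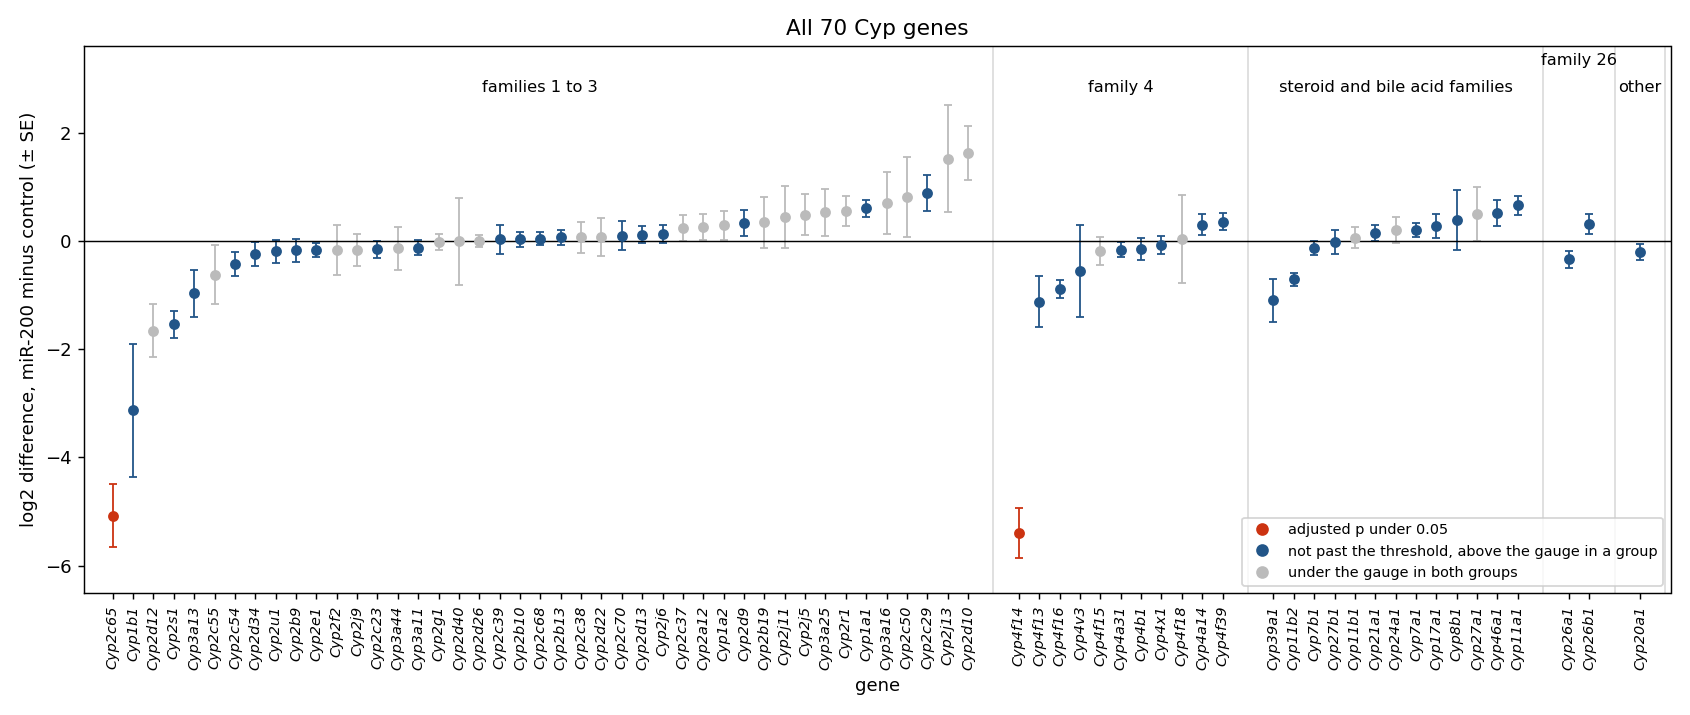
Difference in log2 signal, miR-200 minus control, with its standard error for each of the 70 Cyp genes, ordered by difference within family groups; red genes have an adjusted p under 0.05 and grey ones lie under the gauge in both groups. Cyp4f14 at -5.40 and Cyp2c65 at -5.08 lie far below the rest, and most genes lie within 0.5 of 0.

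Cyp4f14 (chr17:32903357-32917376, GRCm38.p6) encodes a fatty acid and leukotriene B4 hydroxylase found in liver and intestine. Its signal was 8.75, 7.21 and 8.27 in the control cultures and 2.23, 2.64 and 3.17 in the miR-200 cultures. All 3 control cultures were well above the gauge and all 3 miR-200 cultures were under it, so the groups did not overlap. The means were 8.08 ± 0.79 and 2.68 ± 0.47 (SD, n = 3 each), a difference of -5.40 ± 0.46 (SE; limma adjusted p = 0.0166). As the miR-200 mean is under the gauge, the gene was at least 6.97-fold lower.

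Cyp2c65 (chr19:39061006-39093948) encodes an arachidonic acid oxidase of the gut. The control cultures gave 10.31, 8.31 and 10.17 and the miR-200 cultures 4.19, 4.78 and 4.59. Here too every miR-200 culture was under the gauge, and control B was the lowest of the control cultures by a wide margin. The means were 9.60 ± 1.12 and 4.52 ± 0.30 (SD, n = 3 each), a difference of -5.08 ± 0.58 (SE; limma adjusted p = 0.0384), or at least 19.9-fold lower. Its only probe set is of a type that can bind near-identical transcripts of related genes, so signal from a close Cyp2c relative cannot be told apart from its own.

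Both calls were sensitive to single cultures. Without control A the adjusted p was 0.0856 for Cyp4f14 and 0.152 for Cyp2c65. Without control C these were 0.0949 and 0.142, without miR-200 B 0.114 and 0.169, and without miR-200 C 0.0903 and 0.173. Without control B both stayed under 0.05 (0.0258 and 0.0143), and without miR-200 A Cyp4f14 did (0.0498) while Cyp2c65 did not (0.0881). The sizes moved little: over these 6 omissions the difference ran from -5.83 to -5.05 for Cyp4f14 and from -5.71 to -4.70 for Cyp2c65.

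**Figure D2:**
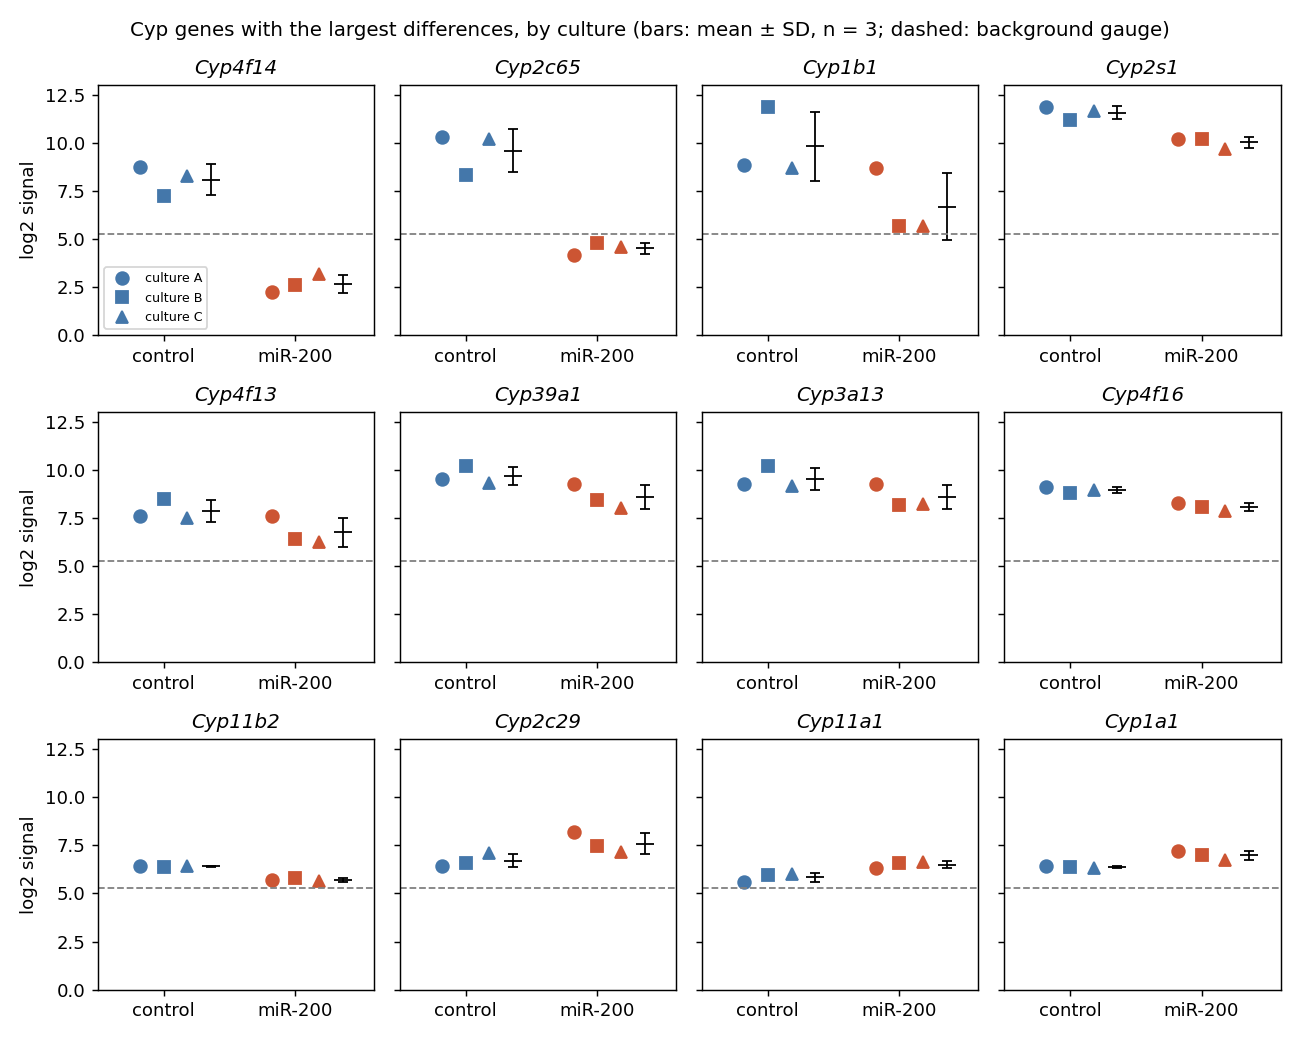
Log2 signal of the Cyp genes with the largest differences in each control and miR-200 culture, with the mean and SD of each group (n = 3) and the background gauge of 5.28 as a dashed line. In Cyp4f14 and Cyp2c65 the groups lie on either side of the gauge, while in Cyp1b1 control B and miR-200 A lie far above the other cultures of their groups.

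Both genes sit in gene clusters that arose by duplication, and the neighbours' values are given as far as they could be read. Mouse chromosome 19 holds 15 protein-coding Cyp2c genes, 11 of them measured, all taken here as the Cyp2c gene cluster. Of these, Cyp2c23 lies apart from the others: it starts at base 44005022, while the nearest, Cyp2c70, ends at base 40187286. Apart from Cyp2c65, the other 10 differed by -0.63 to 0.89, and none of them was called. Of these 10, 4 were under the gauge in both groups, where a difference cannot be judged. Its neighbour Cyp2c55 was under the gauge in both groups (0.63 and 0.00), and Cyp2c66 on the other side had no probe set of its own. The most different of the other 10 above the gauge was Cyp2c29, which lay higher in the miR-200 cultures, at 6.41, 6.59 and 7.10 in the controls and 8.16, 7.47 and 7.14 with miR-200 (0.89 ± 0.33, SE; limma adjusted p = 0.322).

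The Cyp4f gene cluster on chromosome 17 holds 8 protein-coding genes, 5 of them measured. Apart from Cyp4f14, the other 4 differed by -1.12 to 0.36. Cyp4f15, next to Cyp4f14 on one side, was just under the gauge in both groups (5.20 and 5.02), and Cyp4f13 on the other side gave 7.60, 8.51 and 7.50 in the controls and 7.63, 6.39 and 6.24 with miR-200. The Cyp4f13 groups overlapped because miR-200 A was as high as the controls (-1.12 ± 0.48, SE; limma adjusted p = 0.377). Cyp4f16, further along, gave 9.12, 8.82 and 8.93 in the controls and 8.28, 8.07 and 7.88 with miR-200, with no overlap (-0.88 ± 0.16, SE; limma adjusted p = 0.104), and its other probe set differed by -0.51 ± 0.22 (adjusted p = 0.387). Cyp4f39, a skin fatty acid hydroxylase at the far end, stood at 6.08 and 6.44 (0.36 ± 0.16, SE; limma adjusted p = 0.404). The median difference of the 6 Cyp4f genes measured, Cyp4f18 on another chromosome included, was -0.54.

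**Figure D3:**
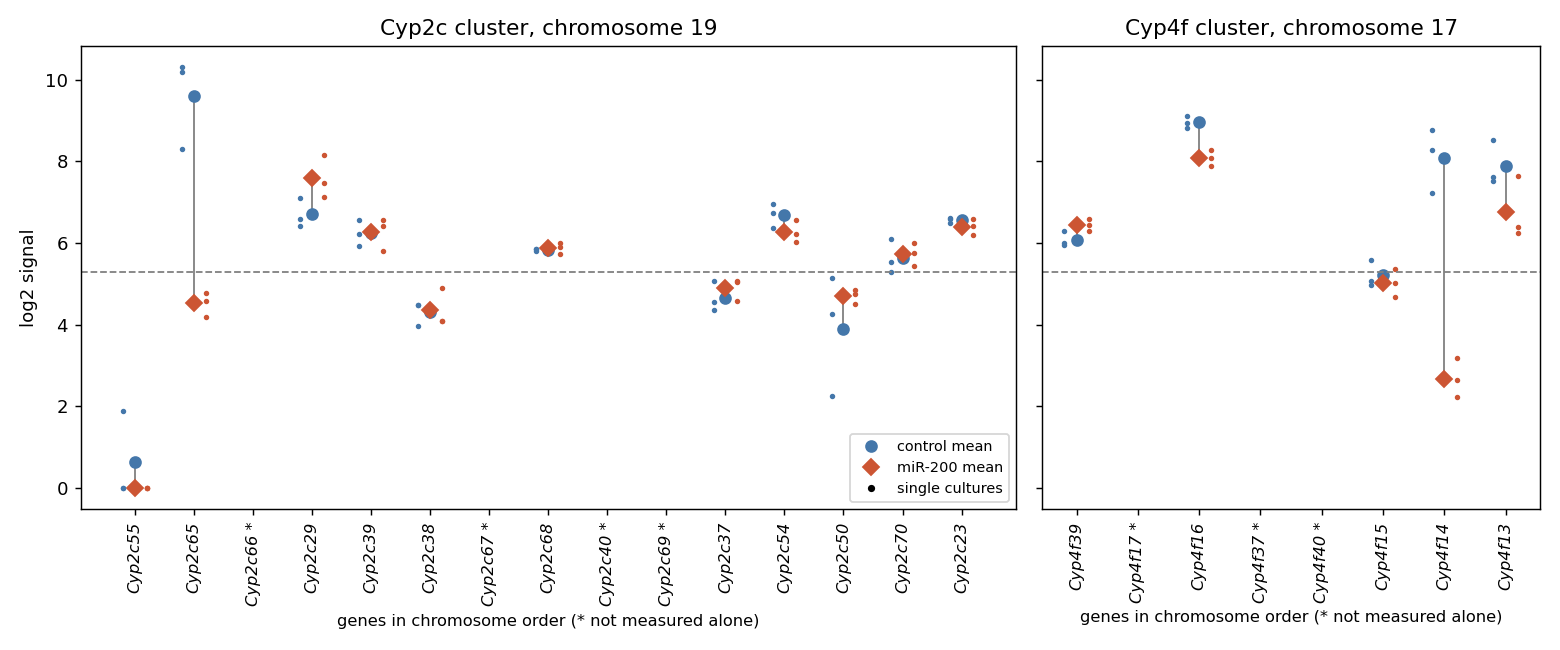
Group means and single-culture log2 signals of the genes of the Cyp2c gene cluster (chromosome 19) and the Cyp4f gene cluster (chromosome 17), in chromosome order, with the background gauge of 5.28 dashed. In each, 1 gene (Cyp2c65 or Cyp4f14) has its control mean far above the gauge and its miR-200 mean under it, and the other measured genes differ by -1.12 to 0.89.

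The upstream sequences of both genes are shown because they are the stretches where liver and gut factors commonly bind P450 genes. Each is the 250 bases before a RefSeq transcription start (GRCm38.p6), printed 5′ to 3′ on the gene's own strand, with a searched motif in capitals.
Cyp2c65 (chr19:39060756-39061005, plus strand): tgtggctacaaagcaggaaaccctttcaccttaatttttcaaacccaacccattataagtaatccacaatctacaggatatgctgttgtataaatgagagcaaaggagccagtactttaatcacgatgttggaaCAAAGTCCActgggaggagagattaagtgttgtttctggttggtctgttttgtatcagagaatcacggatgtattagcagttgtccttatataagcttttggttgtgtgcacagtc
Cyp4f14 (chr17:32917357-32917606, minus strand): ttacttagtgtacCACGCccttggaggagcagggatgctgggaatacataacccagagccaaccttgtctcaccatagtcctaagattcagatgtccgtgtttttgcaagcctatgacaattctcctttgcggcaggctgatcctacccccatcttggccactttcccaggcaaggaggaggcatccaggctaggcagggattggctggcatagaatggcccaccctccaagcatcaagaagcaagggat
In Cyp2c65 the capitals mark CAAAGTCCA, a match to the element bound by hepatocyte nuclear factor 4, 116 bases before the start. In Cyp4f14, shown for the most upstream of its 4 windows at hand, whose last bases lie inside the annotated gene because an annotated start lies slightly further upstream, they mark CACGC, the reverse complement of the aryl hydrocarbon receptor core GCGTG, 237 bases before that window's start. Such windows were at hand for 51 of the 70 members (58 windows) and for all genes together as 32851 windows, and both strands were searched.

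CAAAGTCCA stood in 6 of the 58 Cyp windows (10.3%) and in 0.384% of all windows. The 6 were those of Cyp2c65, Cyp2c68, Cyp2c70, Cyp3a11, Cyp3a16 and Cyp8b1, whose differences were -5.08, 0.04, 0.09, -0.13, 0.70 and 0.39. So 1 of the 6 genes with these letters was called, and the other 5 were not. Those 5 had little or no room to show a fall. Cyp3a16 was under the gauge in both groups and Cyp8b1 in the controls. Cyp2c70, Cyp2c68 and Cyp3a11 had control means of 5.63, 5.83 and 6.11, near the gauge of 5.28. Duplicated genes share sequence, so these windows are not independent of each other. The forkhead motif TGTTTAC was in 7 Cyp windows (12.1%) against 3.17% of all, the hepatocyte nuclear factor 1 core GTTAAT in 3 (5.17%) against 6.43%, the E-box CAGGTG bound by Zeb factors in 12 (20.7%) against 17.2%, and GCGTG in 13 (22.4%) against 28.2%. GTTAAT was found in another of the Cyp4f14 windows. The motifs were picked with the values known, and a match is a run of letters, not a shown binding site.

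Among families 1 to 3, which handle foreign compounds and some fatty acids, 43 genes were measured and 22 of them lay under the gauge in both groups. Cyp2c65 was the only one called, 4 were lower and 3 higher at an unadjusted p under 0.05, and the median difference was 0.04. Over all genes 8.47% were lower and 6.35% higher at that p. Cyp2d12 among the lower and Cyp2d10 among the higher were under the gauge in both groups, where a difference cannot be judged. Cyp1b1 (chr17:79706940-79715061), an oestradiol and polycyclic hydrocarbon hydroxylase induced through the aryl hydrocarbon receptor, had the largest difference after the called pair. It gave 8.85, 11.87 and 8.69 in the control cultures and 8.68, 5.66 and 5.68 in the miR-200 cultures. Control B was about 3 log2 units above control A and C, and miR-200 A stood as far above miR-200 B and C, so the groups missed overlapping by a narrow margin. The difference was -3.13 ± 1.22 (SE; limma adjusted p = 0.344). The probe sets of Cyp1b1 disagree: another gave -2.98 ± 1.19 (adjusted p = 0.354), and the third gave 0.15 ± 0.24 (adjusted p = 0.826), from 7.44 to 7.59.

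Cyp2s1 (chr7:25802469-25816525), an enzyme of airway and gut epithelium, was bright in every culture. It gave 11.83, 11.18 and 11.67 in the controls and 10.20, 10.18 and 9.69 with miR-200, and every miR-200 culture was lower than every control. Means were 11.56 ± 0.34 and 10.02 ± 0.29 (SD, n = 3 each), a difference of -1.54 ± 0.24 (SE), or 2.91-fold, with an unadjusted p of 0.000971 and a limma adjusted p of 0.0766, which misses the threshold. Cyp2s1 did pass it when the fit allowed the variance to follow the signal level, when arrays were weighted, and when the dimmest 40% of probe sets were left out.

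Cyp3a13, the Cyp3a enzyme found outside the liver, gave 9.24, 10.20 and 9.18 in the controls and 9.29, 8.18 and 8.24 with miR-200. The groups overlapped through miR-200 A (-0.97 ± 0.43, SE; limma adjusted p = 0.393). The other 4 Cyp3a genes, enzymes typical of liver, stayed at or below 6.11 in both group means, with 3 of them under the gauge. Cyp1a1, the classical target of the aryl hydrocarbon receptor, gave 6.41, 6.37 and 6.32 in the controls and 7.19, 6.99 and 6.72 with miR-200. These values did not overlap and lay higher with miR-200, the opposite side from Cyp1b1 (0.60 ± 0.16, SE; limma adjusted p = 0.207). Cyp1a2, the third family 1 enzyme, was listed at 0 in all 3 control cultures.

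Cyp2b10, a target of the constitutive androstane receptor, stood at 5.93 and 5.96 (0.03 ± 0.14, SE; limma adjusted p = 0.956), and its other probe sets differed by -0.41 ± 0.22 and -0.31 ± 0.15. Cyp2e1, the ethanol-inducible enzyme, stood at 7.12 and 6.95 (-0.18 ± 0.13, SE; limma adjusted p = 0.613). Cyp2f2, the naphthalene-oxidising enzyme of club cells, was under the gauge in both groups, at 4.48 and 4.31. In the Cyp2d subfamily 5 of 8 genes were under the gauge in both groups, among them Cyp2d10 (1.62 ± 0.50, SE) and Cyp2d12 (-1.66 ± 0.49, SE), whose groups did not overlap but whose signals carry no fold change. In the Cyp2j subfamily 4 of 5 genes were under it.

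Family 4 held 11 genes, of which Cyp4f14 was called and 2 were lower at an unadjusted p under 0.05, with a median difference of -0.16. Over all genes 8.47% were lower at that p. Besides the Cyp4f genes above, Cyp4b1, a lung enzyme that oxidises fatty acids and some toxins, stood at 8.61 ± 0.28 and 8.45 ± 0.18 (-0.16 ± 0.20, SE; limma adjusted p = 0.777). Cyp4a31 stood at 7.47 ± 0.09 and 7.31 ± 0.12 (-0.16 ± 0.13, SE; limma adjusted p = 0.650). Cyp4a14, a peroxisome proliferator target, stood at 6.35 and 6.64 (0.30 ± 0.20, SE; limma adjusted p = 0.567). In these 3 genes the groups overlapped. Cyp4v3, a fatty acid hydroxylase of the eye, gave 4.99, 6.83 and 4.51 in the controls and 6.29, 4.19 and 4.18 with miR-200, and lay above the gauge only in control B and miR-200 A (-0.56 ± 0.85, SE; limma adjusted p = 0.818).

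The steroid, bile acid and vitamin D families (7, 8, 11, 17, 21, 24, 27, 39 and 46 among those measured) gave 13 genes with none called and a median difference of 0.19. At an unadjusted p under 0.05, 2 were lower and 1 was higher, against 8.47% and 6.35% of all genes. Cyp39a1, an oxysterol hydroxylase of bile acid synthesis, gave 9.50, 10.21 and 9.33 in the controls and 9.27, 8.42 and 8.04 with miR-200. The lowest control and miR-200 A lay within 0.1 of each other, without overlap (-1.10 ± 0.40, SE; limma adjusted p = 0.312). Cyp11b2, aldosterone synthase, was low but tightly grouped, at 6.40, 6.39 and 6.42 in the controls and 5.68, 5.78 and 5.62 with miR-200 (-0.71 ± 0.12, SE; limma adjusted p = 0.0858). Cyp11a1, which starts steroid synthesis from cholesterol, gave 5.57, 5.97 and 5.99 in the controls and 6.29, 6.59 and 6.60 with miR-200, the higher group, without overlap (0.65 ± 0.18, SE; limma adjusted p = 0.219). Its other probe sets were under the gauge and differed by 0.40 ± 0.89 and -0.40 ± 0.42, so their directions disagree.

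Cyp7a1, the rate-limiting enzyme of classical bile acid synthesis, stood at 8.41 ± 0.14 and 8.61 ± 0.0038 without overlap (0.20 ± 0.13, SE; limma adjusted p = 0.555), while its other probe set differed by -0.25 ± 0.34 (adjusted p = 0.786). Cyp21a1, steroid 21-hydroxylase, stood at 7.79 ± 0.14 and 7.93 ± 0.17 (0.14 ± 0.15, SE; limma adjusted p = 0.725), and its other probe set differed by -0.12 ± 0.21. For the vitamin D enzymes, Cyp27b1, which activates the hormone, stood at 5.91 and 5.89, and Cyp24a1, which inactivates it, was under the gauge in both groups. Neither vitamin D enzyme was called (-0.02 ± 0.22 and 0.19 ± 0.24, SE; limma adjusted p = 0.988 and 0.769).

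Family 26 clears retinoic acid. Cyp26a1 gave 6.22, 5.98 and 5.96 in the controls and 5.61, 5.93 and 5.59 with miR-200, the lower group, without overlap (-0.34 ± 0.16, SE; limma adjusted p = 0.416). Cyp26b1 gave 5.85, 6.04 and 6.29 in the controls and 6.10, 6.48 and 6.52 with miR-200, with overlapping groups (0.31 ± 0.19, SE; limma adjusted p = 0.535). Cyp20a1, a member of unknown substrate that was bright in every culture, stood at 11.39 ± 0.08 and 11.18 ± 0.21 (-0.21 ± 0.15, SE; limma adjusted p = 0.612), and its other probe sets differed by -0.49 ± 0.21 and -0.17 ± 0.24.

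The cultures that stand apart touched some members strongly and others little. In Cyp1b1 control B exceeded the mean of control A and C by 3.10, and miR-200 A exceeded the mean of miR-200 B and C by 3.01. The same 2 excesses were 2.08 and 2.10 in Cyp4v3, 0.96 and 1.32 in Cyp4f13, 0.99 and 1.08 in Cyp3a13, and 0.79 and 1.04 in Cyp39a1. These 5 genes were thus high in both cultures. The sign was the other way in the called genes, at -1.93 and -0.49 for Cyp2c65 and -1.30 and -0.67 for Cyp4f14. What set these cultures apart was not tested.

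The group difference was therefore also taken between like cultures. Set against control B, miR-200 A gave -3.19 for Cyp1b1, and the other cultures, miR-200 B and C against control A and C, gave -3.10. In the same order the values were -0.88 and -1.24 for Cyp4f13, -0.91 and -0.9999 for Cyp3a13, -0.93 and -1.18 for Cyp39a1, and -0.71 and -0.71 for Cyp11b2. Cyp4f14 gave -4.98 and -5.61, Cyp2c65 -4.12 and -5.56, Cyp2s1 -0.99 and -1.82, and Cyp2c29 1.58 and 0.54. All 9 genes kept their direction in both kinds of culture. For all but Cyp4f13 and Cyp3a13 this was bound to be so, since their groups did not overlap. The genes were also picked by these same values, so the shared direction is no separate evidence.

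With a 2-level term for these cultures in the fit, 5 members were called lower and none higher: Cyp1b1 (limma adjusted p = 0.00727), Cyp4f14 (0.0125), Cyp2c65 (0.0197), Cyp3a13 (0.0314) and Cyp4f13 (0.0408). The background in that fit was 1.92% of all genes called lower and 0.715% called higher. The term was read from the same values it corrects, which makes these p-values smaller than they should be, by how much is not known. With both cultures left out, Cyp1b1 (0.0473) and Cyp2c65 (0.0473) were called and Cyp4f14 (0.0566) was not. That fit called 0.291% of all genes lower and 0.0385% higher.

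**Figure D4:**
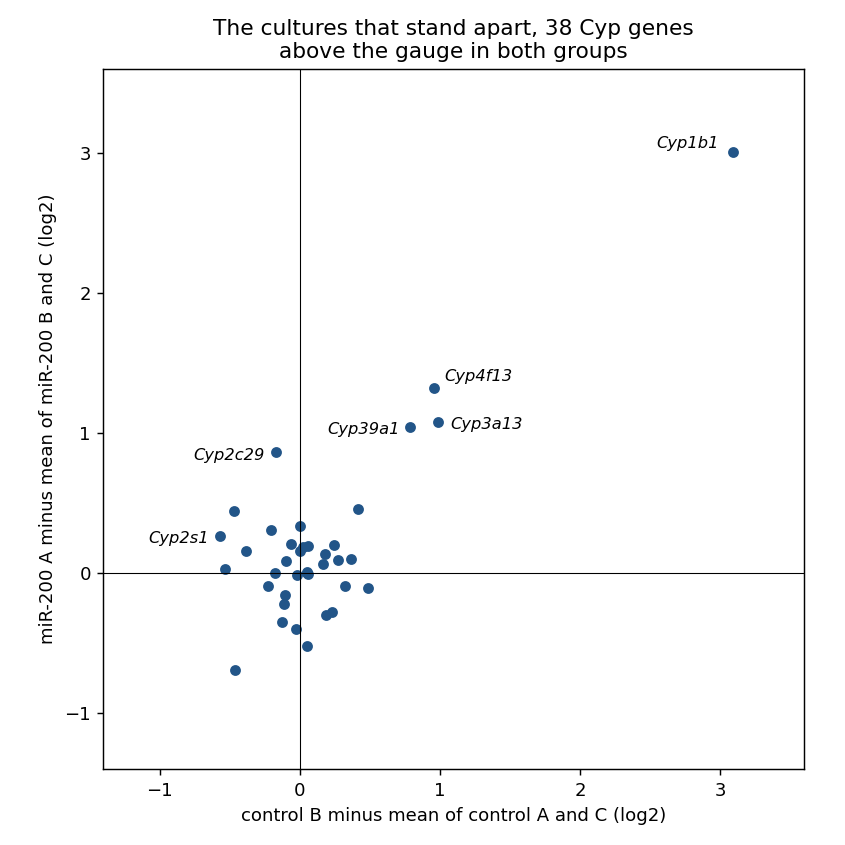
For each of the 38 Cyp genes above the gauge in both groups, the excess of control B over the mean of control A and C (x axis, log2) against the excess of miR-200 A over the mean of miR-200 B and C (y axis, log2). Cyp1b1 lies near 3 on both axes, followed by Cyp4f13, Cyp3a13 and Cyp39a1, which lie near 1, and most genes lie near 0.

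The genes that work with P450 enzymes were described through 7 lists of 202 symbols, of which 179 were measured. Over all genes 0.671% were called lower and 0.275% higher, and 8.47% and 6.35% at an unadjusted p under 0.05 (limma). Electron donors and haem supply gave 18 measured genes, with none called, 5 lower and none higher at an unadjusted p under 0.05, and a median difference of -0.19. Por, the P450 reductase itself, had no probe set annotated to it alone. Cyb5r3, which reduces cytochrome b5, stood at 11.51 and 10.85 (-0.66 ± 0.12, SE; limma adjusted p = 0.102). Blvrb, a biliverdin reductase downstream of haem breakdown, had the lowest difference of this list, at 9.41, 10.07 and 9.25 in the controls and 8.87, 4.97 and 4.48 with miR-200, with miR-200 A close to the controls and the others far below (-3.47 ± 1.20, SE; limma adjusted p = 0.294).

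Receptors and regulators of P450 genes gave 33 measured genes, of which 1 fell and none rose, with a median of -0.24. The gene that fell was Pparg, the lipid-sensing nuclear receptor, at 11.37, 11.35 and 11.39 in the controls and 9.88, 10.08 and 10.15 with miR-200 (-1.33 ± 0.13, SE; limma adjusted p = 0.0244), 2.52-fold lower. The list's count was 0 without any one of control A, B or C or miR-200 B or C, and stayed at 1 without miR-200 A. Nr1h3, the liver X receptor alpha, differed by -0.78 ± 0.17 (adjusted p = 0.137) and Cdx2, an intestinal transcription factor, by -0.80 ± 0.18 (adjusted p = 0.157). Further receptors were picked for interest after their values were seen. Ahr, the aryl hydrocarbon receptor, gave 10.42, 12.09 and 10.29 in the controls and 10.83, 10.07 and 10.20 with miR-200, so control B was its highest culture, as in Cyp1b1, and miR-200 A the highest of its group (-0.57 ± 0.54, SE; limma adjusted p = 0.691). Hnf4a stood at 11.70 and 11.57 (-0.13 ± 0.15; adjusted p = 0.739), Nr1i2, the pregnane X receptor, differed by -0.03 ± 0.18 (adjusted p = 0.960), and Nr1i3, the constitutive androstane receptor, by 0.09 ± 0.15 (adjusted p = 0.831).

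The enzymes that conjugate or further oxidise P450 products held the most called genes of the 7 lists, and theirs was the largest list. Of 45 measured genes 4 fell and none rose, against 0.671% and 0.275% of all genes, and the median was -0.54. Without overlap, 17 lay lower and 2 higher, against 12.1% and 11.4% of all genes. Gsta2, a glutathione transferase, gave 9.15, 8.88 and 9.45 in the controls and 4.98, 4.68 and 4.36 with miR-200, under the gauge in every miR-200 culture. It differed by -4.49 ± 0.23 (SE; limma adjusted p = 0.00450), at least 14.7-fold lower. Sult2b1, a cholesterol sulphotransferase, fell from 7.73, 7.84 and 7.54 to 5.38, 4.33 and 5.02 (-2.80 ± 0.29, SE; limma adjusted p = 0.0296), at least 5.36-fold.

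Sult1b1, a phenol sulphotransferase of the gut, fell from 6.67, 6.68 and 6.84 to 4.12, 4.14 and 4.58 (-2.45 ± 0.18, SE; limma adjusted p = 0.0102), at least 2.73-fold. Tpmt, which methylates thiopurine drugs, fell from 9.50, 9.33 and 9.43 to 8.04, 8.42 and 8.18 (-1.20 ± 0.15, SE; limma adjusted p = 0.0451), or 2.30-fold. The call for Tpmt rests on its brightest probe set, since the other 3 differed by -0.17 to -0.08. Ugt2b34, a glucuronosyltransferase, differed by -2.29 ± 0.35 (adjusted p = 0.0697). The list's count of 4 became 0 without control A, 2 without control B, 1 without control C, 6 without miR-200 A, 1 without miR-200 B and 2 without miR-200 C.

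In the remaining lists no gene passed the threshold. The retinoid list had 18 measured genes, with 1 lower and 1 higher at an unadjusted p under 0.05 and a median of -0.09. Aldh1a2, which makes the retinoic acid that family 26 clears, gave 5.38, 5.49 and 5.97 in the controls and 8.39, 7.53 and 7.31 with miR-200, higher without overlap (2.13 ± 0.34, SE; limma adjusted p = 0.0766). Arachidonic acid and eicosanoid genes outside the family gave 28 measured genes, 1 lower and 4 higher at an unadjusted p under 0.05, and a median of 0.09. Ptgs2, the inducible cyclooxygenase, differed by 1.07 ± 0.20 (adjusted p = 0.102), and Pla2g4a, which releases arachidonic acid, by 0.90 ± 0.15 (adjusted p = 0.0868).

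Cholesterol synthesis and its control gave 22 measured genes, 1 lower and 1 higher at an unadjusted p under 0.05, and a median of 0.02. The lower one was Cyp51, a P450 enzyme whose symbol lacks the letter that the rule asks for, at 12.21 ± 0.18 and 11.32 ± 0.12 (-0.88 ± 0.15, SE; limma adjusted p = 0.0896). Steroid and vitamin D synthesis outside the family gave 18 measured genes, 3 lower and 1 higher at that p, and a median of -0.16. Hsd17b11 differed by -1.75 ± 0.29 (adjusted p = 0.0888) and Hsd17b2, which inactivates oestradiol, by -1.31 ± 0.22 (adjusted p = 0.0864).

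**Figure D5:**
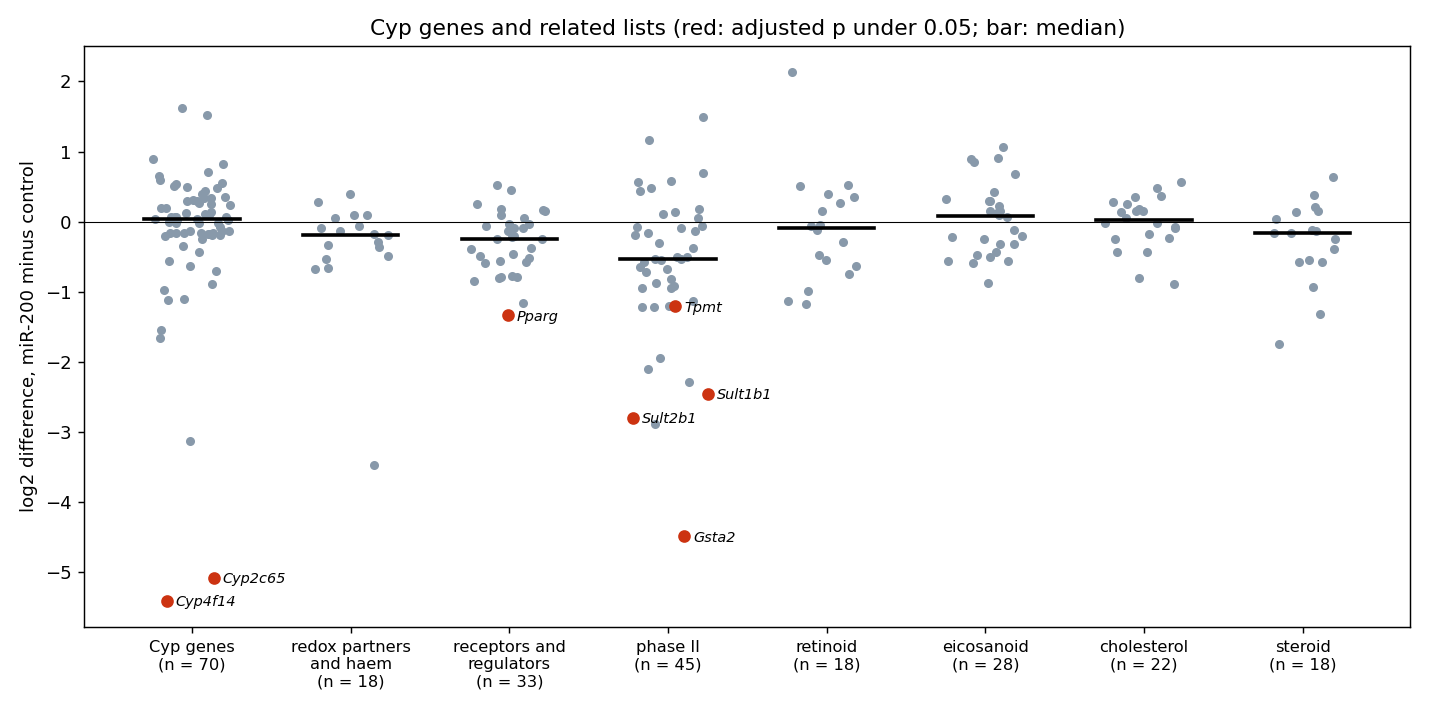
Difference in log2 signal, miR-200 minus control, of every measured gene among the 70 Cyp genes and in each of the 7 related lists, with the median as a bar and genes at an adjusted p under 0.05 in red. The list of conjugating enzymes holds 4 such genes and the lowest median, -0.54, and the receptor list holds 1.

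Markers of the labelled epithelium were present: all 8 genes of that list, Krt8, Cdh1 and Nkx2-1 among them, lay above the gauge in both groups and none was called. Of 6 measured alveolar type 2 genes 4 lay above it; Sftpc, the defining marker, ran from 3.95 to 4.85, under the gauge, and Sftpb fell from 12.58 to 6.54 (limma adjusted p = 0.00249). A summed log2 level is the log2 of a list's signals added on the linear scale, so its brightest genes weigh most. For the alveolar type 2 list it was 12.66 to 13.23 in the controls and 10.22 to 10.28 with miR-200. Of 6 measured club cell genes none was called, and 4 lay above the gauge in both groups (Gsto1, Krt15, Scgb3a1 and Aldh1a7). The other 2, Scgb1a1 and Scgb3a2, were under it in both groups, Scgb1a1 in all 6 cultures. Cyp2f2 was under it by group mean. Hepatocyte genes gave 12 measured, 7 above the gauge, none called, and a summed log2 level of 9.03 to 9.22 in the controls and 8.999 to 9.26 with miR-200, with Ahsg listed at 0 in 3 cultures and G6pc in 4.

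The summed level of enterocyte genes was also lower with miR-200, by less than that of alveolar type 2 genes. Of 13 enterocyte genes measured, 7 lay above the gauge in the controls and 6 with miR-200, 1 fell (Apob, 10.81 to 5.85; -4.95 ± 0.46, SE; limma adjusted p = 0.0201), and 6 lay lower and 1 higher without overlap. Over all genes 0.671% were called lower, and 12.1% lay lower and 11.4% higher without overlap. The enterocyte list's summed log2 level was 13.05 to 13.41 in the controls and 12.13 to 12.40 with miR-200. The sums of both lists thus lay on the same side as Cyp4f14, Cyp2c65 and Gsta2. The alveolar type 2 sum rests mostly on Sftpb, and that list's median difference was -0.08. Abca3 (-0.50) and Sftpa1 (-0.21) also lay lower, while Slc34a2 (0.28), Sftpd (0.05) and Sftpc (0.49) lay higher. Sftpa1 and Sftpc were under the gauge in both groups. The part of either list's genes in the P450 result was not tested.

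Of 12 measured stromal, endothelial and blood cell genes none was called, 4 were under the gauge in both groups, and the summed log2 level was 10.31 to 10.73 in the controls and 10.64 to 11.02 with miR-200. Cd68, a blood cell gene of this list, gave 6.81, 8.87 and 6.46 in the controls and 8.98, 5.73 and 5.97 with miR-200. It was thus high in control B and miR-200 A, as Cyp1b1 was, and differed by -0.49 ± 1.10 (SE, limma adjusted p = 0.884). The list's other measured blood cell genes were not high in both cultures. Control B differed from the mean of control A and C by 0.47 in Ptprc, 0.42 in Cd3e and -0.11 in Csf1r. In the same order, miR-200 A differed from the mean of miR-200 B and C by -0.08, 0.0099 and 0.0028. Signals of Ptprc and Cd3e were near the gauge. Csf1r, the receptor for a macrophage growth factor, gave 9.34, 9.40 and 9.68 in the controls and 9.92, 9.89 and 9.94 with miR-200, the higher group, without overlap (0.45 ± 0.14, SE; limma adjusted p = 0.264). Their part in the P450 values was not tested.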

How the data were processed

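RNA of 6 cultures was read on Affymetrix mouse expression arrays, per the labels' protocols. The authors' deposited table holds 1 log2 signal per probe set and array, and how the signals were summarised and normalized was not given in the sources used here. Array medians ran from 6.32 to 6.41. The labels name the 430A 2.0 design, while the table holds 45101 probe sets, as the larger mouse design does. Probe sets were named from the platform annotation, with symbols updated through gene number for 34741 of the 34945 that name 1 gene; 932 name several and 9160 carried no name here.

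From these values, all 45101 probe sets were quantile normalized, and 64 control probe sets were then set aside. The other 45037 were fitted with limma 3.58.1 (R 4.3.3, lmFit, eBayes, two-sided, Benjamini-Hochberg, threshold 0.05), a step tested on simulated data. "At least" folds set the brighter mean against the gauge. The number of arrays limits the precision.

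The members and lists were chosen with earlier results of these data known. Named were called members and, among members above the gauge in a group, up to 12 with the largest differences and up to 10 with the highest means, members whose probe sets disagree and, in each list, called genes and up to 3 with the smallest p; other genes named were picked after their values were seen. Alternatives covered normalization, filter, probe set choice, variance model, weights, replicate letter, omitted arrays and symbols. Sequences come from RefSeq (GRCm38.p6).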

Additional observations from a re-analysis of the deposited data

How the results depend on the processing

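The count of Cyp genes past the threshold was 2 with the values as deposited, with arrays centred on their medians, with probe sets averaged per gene, with the annotation's own symbols and, with Cyp1b1 in place of Cyp4f14, without both arrays that stand apart. It was 5 with the 2-level term, 5 with array weights, 4 with a variance trend and robust estimation, 4 without the dimmest 40% of probe sets (which left 38 members and removed Cyp4f14), and 10 of 38, of which 8 lower and 2 higher (Cyp11a1 and Cyp1a1), with that filter and the term together. Beside the called pair, Cyp2s1 and Cyp4f16 passed with array weights, with the variance trend and under the filter, and Cyp11b2 passed with the weights and under the filter. Leaving out 1 array at a time gave 0 to 2. Over all 18193 genes the count was 172 (122 lower, 50 higher). It was 480 with the term, 606 with array weights, 494 with the trend, 476 without the dimmest probe sets, 2271 of 12806 with the filter and the term (1372 lower, 899 higher), 268 with the mean of probe sets, 60 without both arrays (53 lower, 7 higher), and 16 (without control A) to 185 with single arrays left out. The cause of these changes was not tested. Some of these fits also held fewer probe sets or arrays.

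The letters A, B and C were shared by the groups, and whether they pair the cultures is not in the labels. Deviations from the group means of same-letter cultures correlated at -0.58, -0.67 and 0.43. Control B and miR-200 A, which correlated at 0.71, weigh on these values, so the values cannot decide whether the letters pair the cultures. With the letter as a replicate block no Cyp gene was called (9 at an unadjusted p under 0.05) and 0 of all genes were (limma; 4280 probe sets at an unadjusted p under 0.05). Cyp4f14 then had an adjusted p of 0.185 and Cyp2c65 of 0.271.

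Of 286 values of the 18 named Cyp genes under alternatives, 245 kept direction and side of the threshold, 12 lost a call, 21 gained one, and 8 changed sign, none of them past the threshold. Cyp2b10 was at -0.026 with array weights, -0.23 with the mean of probe sets, -0.015 without both arrays, and -0.036 to 0.11 with single arrays left out. Cyp4b1 was at 0.042 without both arrays and at -0.26 to 0.0072 with single arrays left out, and Cyp7a1 was at -0.025 with the mean of probe sets. With 3 arrays per group, differences of members under the gauge, where signal is near background, could not be judged.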
